A study of Homo sapiens with 40 samples.

Results

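The 9 genes described here encode the 4 eIF2α kinases (EIF2AK1, EIF2AK2, EIF2AK3 and EIF2AK4), the mitochondrial protease OMA1 and its substrate DELE1, the phosphatase regulatory subunits PPP1R15A and PPP1R15B, and eIF2α itself (EIF2S1). They were listed by name, as the sensors, relay and feedback of the integrated stress response, with earlier results of these data known. They are 9 of the 58395 genes counted in the series, and all 9 passed the filter on low counts, which left 28922 genes. As background, each kinase phosphorylates eIF2α in response to a different stress, which slows the start of most translation while favouring that of a few mRNAs such as ATF4. In a mitochondrial branch of the response, OMA1 cleaves DELE1, and the released DELE1 activates the kinase HRI, the product of EIF2AK1. Phosphorylation of eIF2α is reversed by protein phosphatase 1 bound to a regulatory subunit, which is either GADD34 (PPP1R15A), whose gene is itself induced by stress, or CReP (PPP1R15B), which is made constitutively. Poly(A) RNA levels of these genes do not show how much eIF2α is phosphorylated, which was not measured here.

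RNA was sequenced from HEK293A, a human embryonic kidney cell line that adheres and grows as a flat monolayer. The wild-type cells (WT) and a PARP1-KO line were each left untreated or given 0.1% DMSO, Tpc with DMSO, OL9-119 or Tpc with OL9-119, with 4 libraries for each of the 10 conditions and 40 in all. Every condition but the untreated one held 0.1% DMSO, so drug comparisons with untreated cells include the solvent. The PARP1-KO line is 1 clone made by CRISPR/Cas9, so its differences from WT are those of a clone, and its label reads both knockout and knockdown. Tpc (topotecan) traps topoisomerase 1 on DNA, and OL9-119 is an inhibitor of TDP1, the enzyme that removes such trapped complexes. Tpc was given at 100 nM to WT and at 50 nM to PARP1-KO cells, OL9-119 at 5 µM to both, and exposure lasted 5 to 5.5 h. The doses of Tpc therefore differ wherever genotypes given Tpc are compared, and genotype and dose cannot be told apart there. Replicates are called biological in the labels and technical in the study's methods, so the p-values measure the spread between these libraries, which may be technical.

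Total counts ran from 3455043 to 20379777 per library. PARP1, the targeted gene, lay between 737 and 887 CPM (counts scaled to the size of the library) in the 20 WT libraries and between 30.4 and 46.6 CPM in the 20 PARP1-KO libraries. VIM, KRT8 and KRT18, which HEK293 cells express, were at 188.6 CPM or more in every library. The other markers listed for HEK293 were low, with medians of 1.40 CPM for PAX2, 7.05 for NEFM and 10.5 for LHX1. PAX2 ran from 0.0979 to 12.05 CPM, NEFM from 3.38 to 49.6 CPM and LHX1 from 4.08 to 19.7 CPM. The leukocyte markers PTPRC and CD3E did not exceed 0.464 CPM. The summed level of 6 markers of other cell types (PTPRC, CD3E, PECAM1, COL1A1, ALB and GFAP), most of it COL1A1, ran from 16.7 to 46.5 CPM in WT and from 10.5 to 20.5 CPM in PARP1-KO libraries. When all libraries were thinned to the smallest total, 8 WT libraries held fewer than 17000 detected genes and no PARP1-KO library did. These 8 are untreated replicates 1 and 3, DMSO replicates 2 and 3, Tpc replicate 2, OL9-119 replicate 2 and Tpc + OL9-119 replicates 1 and 2, and values without them are given where they change a result. The genotypes thus also differ in detected genes and in that marker sum, and the part of the marker sum in the results was not tested. In bulk RNA, fewer cells that express a gene and less RNA per cell cannot be told apart.

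The promoters of the 3 genes that differed between the genotypes are shown first, because the results turn on PPP1R15A, PPP1R15B and EIF2S1. Each sequence holds the 250 bases before the RefSeq start of the gene on GRCh38.p14, written from 5′ to 3′ on the strand of the gene. PPP1R15A lies on the plus strand of chromosome 19, and its window is chr19:48872171-48872420. PPP1R15B lies on the minus strand of chromosome 1, with the window chr1:204411818-204412067. EIF2S1 lies on the plus strand of chromosome 14, with the window chr14:67360078-67360327. Capitals mark TGACGTCA, the cyclic AMP response element bound by ATF and CREB factors, and the core promoter element TATAAA in PPP1R15A. They mark the reverse complement of TTGCATCA, a composite C/EBP-ATF element, in PPP1R15B.
PPP1R15A: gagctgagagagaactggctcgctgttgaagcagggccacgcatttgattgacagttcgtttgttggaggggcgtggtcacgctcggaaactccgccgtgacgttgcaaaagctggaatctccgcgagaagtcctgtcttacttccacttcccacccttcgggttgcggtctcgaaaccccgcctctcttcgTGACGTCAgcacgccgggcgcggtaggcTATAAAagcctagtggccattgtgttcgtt
PPP1R15B: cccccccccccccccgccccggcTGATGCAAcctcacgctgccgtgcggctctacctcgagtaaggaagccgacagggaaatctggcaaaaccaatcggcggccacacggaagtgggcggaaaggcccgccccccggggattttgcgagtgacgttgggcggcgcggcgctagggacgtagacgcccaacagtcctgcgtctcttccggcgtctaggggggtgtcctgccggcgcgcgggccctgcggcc
EIF2S1: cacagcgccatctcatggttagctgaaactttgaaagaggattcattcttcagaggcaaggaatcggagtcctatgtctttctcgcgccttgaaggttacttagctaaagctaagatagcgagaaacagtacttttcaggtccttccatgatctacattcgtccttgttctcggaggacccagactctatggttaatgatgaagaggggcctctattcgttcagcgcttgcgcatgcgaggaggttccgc

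In PPP1R15A, TGACGTCA lies 58 to 51 bases and TATAAA 30 to 25 bases before the start. In PPP1R15B, the composite element lies 227 to 220 bases before the start, on the strand opposite to the gene. Of the 35116 RefSeq windows of 300 bases, searched on both strands, 1.85% held TGACGTCA, 0.866% TTGCATCA and 11.5% TATAAA. A search for GAAANNGAA, the core of an interferon-stimulated response element, found it in 8.11% of the windows and, among 8 members with a window, in EIF2AK2 alone, starting 6 bases before its start. As background, EIF2AK2 (PKR) is an interferon-stimulated gene. None of the 4 motifs was found in the window of EIF2S1. The motifs do not overlap one another, and a match describes these letters and not a bound factor.

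Levels of different genes were compared as CPM per kilobase of the canonical transcript, averaged over libraries. PPP1R15A had the highest level of the 9 genes, with 125.3 CPM per kb in WT and 289 in PARP1-KO cells. EIF2S1 (39.4 and 62.8 CPM per kb) and EIF2AK1 (41.1 and 34.5) followed. The other kinases lay lower, with EIF2AK4 (GCN2, the sensor of uncharged tRNA) at 16.7 and 15.9 CPM per kb and EIF2AK2 (PKR, the sensor of double-stranded RNA) at 13.9 and 15.02. EIF2AK3 (PERK, the sensor in the endoplasmic reticulum) had 7.69 and 9.08 CPM per kb. HRI was thus the kinase with the most RNA per kilobase in both genotypes. Its lead over EIF2AK2 rests largely on the canonical lengths, 4411 bases against 9975 for EIF2AK2. Without division by length, the medians over all libraries were 165.3 and 149.4 CPM, and which transcripts were expressed was not checked. In WT cells, PPP1R15B had 12.6 CPM per kb, close to EIF2AK2, and in PARP1-KO cells it had 22.9, above the 3 kinases other than EIF2AK1. DELE1 (9.99 and 7.78 CPM per kb) and OMA1 (3.88 and 3.52) were at the low end, and OMA1 was counted between 18 and 205 times per library, which limits its precision.

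Between the genotypes, the regulatory subunits of the phosphatase and eIF2α differed, and the kinases, OMA1 and DELE1 did not pass the test. With DMSO, 3 of the 9 genes were higher in PARP1-KO than in WT cells and 0 were lower by edgeR, beside 12.4% of all tested genes called in either direction (threshold, adjusted p of 0.01). Without treatment the same 3 of 9 were higher and 0 lower, beside 11.7% of all genes. At an unadjusted p under 0.05, 4 of 9 passed in each comparison, beside 9411 (DMSO) and 8815 (untreated) of the 28922 genes. DESeq2 called 3 of 9 with DMSO and 4 of 9 untreated, beside 4448 and 4325 of all genes. Among genes of at least the mean level of OMA1, the lowest of the members, 28.6% were called with DMSO and 27.4% untreated, so 3 of 9 is a share near the background of genes so expressed. The median log2 difference over the 9 genes was 0.241 with DMSO, beside 0.193 over all genes tested, and 0.157 untreated, beside 0.165. The result therefore lies in which members differed and by how much, and not in their number.

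**Figure D1:**
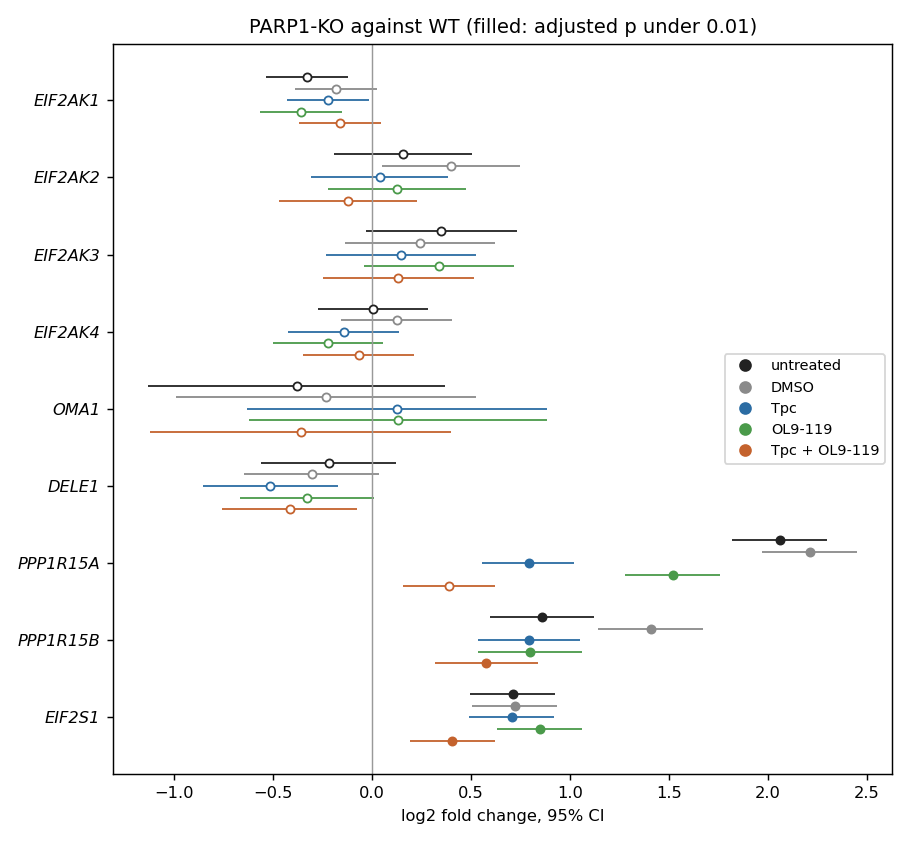
Log2 fold change of PARP1-KO against WT cells for the 9 genes, with 95% confidence intervals from the edgeR fit, in each of the 5 treatments (colours, 4 libraries per condition). Filled points passed an adjusted p of 0.01, which PPP1R15A did in 4 of the 5 treatments, PPP1R15B and EIF2S1 in all 5 and the other 6 genes in none.

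EIF2AK1, the gene of HRI, which is activated by haem shortage and by DELE1, came closest to the threshold among the kinases. Untreated WT libraries had 173, 181, 224 and 167 CPM of EIF2AK1, and untreated PARP1-KO libraries 135, 146, 155 and 157 CPM. Every untreated PARP1-KO library lay below every untreated WT library, as they also did with DMSO, Tpc and OL9-119 but not with the combination. The log2 difference was -0.33 ± 0.10 (SE) untreated (adjusted p = 0.0174) and -0.18 ± 0.10 with DMSO (adjusted p = 0.216), so neither passed the threshold of 0.01. With OL9-119 it was -0.36 ± 0.10 (adjusted p = 0.0107), just outside the threshold, and with Tpc -0.22 ± 0.10 (adjusted p = 0.15). The untreated difference stayed uncalled in 16 of 21 alternatives. Among the others, it passed the threshold with DESeq2 (adjusted p = 0.00118) and with length and GC offsets (-0.48, adjusted p = 0.000779). Of 21 alternatives, 8 called the difference with OL9-119, 1 of them only through a threshold of 0.05 and another being DESeq2 (-0.34, adjusted p = 0.000866), and with DMSO the length and GC offsets did so (-0.39, adjusted p = 0.00582). EIF2AK1 shares exon bases with AIMP2 on the opposite strand, and whether the authors counted by strand is not given in the sources used here.

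The other kinases showed no called difference between the genotypes in the fit of all 40 libraries. EIF2AK2 ranged from 56.0 to 175 CPM in WT and from 116.1 to 189 CPM in PARP1-KO libraries. Its log2 difference was 0.16 ± 0.17 untreated (adjusted p = 0.567) and 0.40 ± 0.17 with DMSO (adjusted p = 0.0989). Without WT replicate 3 of the DMSO group, which had 56.0 CPM, the EIF2AK2 difference with DMSO was 0.17 (adjusted p = 0.482), and with length and GC offsets it was 0.085 (adjusted p = 0.668). EIF2AK3 lay between 19.2 and 43.7 CPM in WT and between 35.8 and 53.5 CPM in PARP1-KO libraries. Its 5 lowest values were all in WT libraries, and each of these libraries was among the 8 with fewer than 17000 detected genes. Untreated, the PARP1-KO libraries (38.4 to 42.8 CPM) lay just above the WT ones (21.4 to 37.0 CPM), with a log2 difference of 0.35 ± 0.19 (adjusted p = 0.202), and with DMSO the groups overlapped (0.24 ± 0.19, adjusted p = 0.382). EIF2AK4 spanned 60.1 to 115.9 CPM in WT and 77.7 to 100.4 CPM in PARP1-KO libraries, with log2 differences of 0.0031 ± 0.14 (adjusted p = 1) and 0.12 ± 0.14 (adjusted p = 0.559). With OL9-119, EIF2AK4 had 110.3, 77.6, 115.9 and 111.3 CPM in WT libraries and 88.1 to 90.1 CPM in PARP1-KO libraries. That log2 difference was -0.22 ± 0.14 (adjusted p = 0.309), and the WT library at 77.6 CPM is among those of few detected genes. Confidence intervals of 95% for the untreated differences ran from -0.19 to 0.50 for EIF2AK2, -0.03 to 0.73 for EIF2AK3 and -0.28 to 0.28 for EIF2AK4. In WT cells no kinase passed the test for any treatment, EIF2AK2 having the largest log2 difference from untreated cells with Tpc (0.35 ± 0.17, adjusted p = 0.317). EIF2AK2 and EIF2AK3 also share exon bases with antisense genes.

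Neither gene of the mitochondrial relay passed the test. DELE1 had 35.4, 54.8, 26.2 and 52.8 CPM in untreated WT libraries and 37.0, 39.4, 33.7 and 35.2 CPM in untreated PARP1-KO libraries. The 2 low WT values are replicates 1 and 3, which are among the libraries with few detected genes. The log2 difference of DELE1 was -0.22 ± 0.17 untreated (adjusted p = 0.388), -0.31 ± 0.17 with DMSO (adjusted p = 0.201) and -0.51 ± 0.17 with Tpc (adjusted p = 0.0315). With OL9-119 it was -0.33 ± 0.17 (adjusted p = 0.203) and with the combination -0.42 ± 0.17 (adjusted p = 0.0993), and in these 2 treatments and with Tpc every PARP1-KO library lay below every WT library. Without the 8 libraries of few detected genes, DELE1 was called lower in PARP1-KO cells untreated (-0.57, adjusted p = 0.00297), with Tpc (-0.60, adjusted p = 0.000387) and with the combination (-0.55, adjusted p = 0.00827). It did not pass there with DMSO (-0.33, adjusted p = 0.115) or with OL9-119 (-0.36, adjusted p = 0.0438). Of the WT libraries, only replicates 2 and 4 untreated and 3 and 4 with the combination remained there. More of all genes were called as well, 4442 with Tpc against 2463 with all libraries. With the number of detected genes as a covariate, DELE1 was called lower with DMSO (-0.62, adjusted p = 0.0053), Tpc (-0.62, adjusted p = 0.00173) and the combination (-0.66, adjusted p = 0.0025), and not in untreated cells (-0.40, adjusted p = 0.0627) or with OL9-119 (-0.44, adjusted p = 0.0299). Both settings were chosen after the data were seen. Leaving out 1 library moved the untreated difference of DELE1 between -0.052 (without WT replicate 2) and -0.39 (without WT replicate 3). OMA1 ran from 2.94 to 16.4 CPM over all libraries, with log2 differences of -0.38 ± 0.37 untreated (adjusted p = 0.51) and -0.23 ± 0.38 with DMSO (adjusted p = 0.715). Its 2 highest values, 14.3 and 16.4 CPM, were in untreated replicate 1 and Tpc + OL9-119 replicate 1 of WT, again libraries of few detected genes. Without those libraries its untreated difference was 0.34 (adjusted p = 0.537), so no direction can be given for OMA1.

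**Figure D2:**
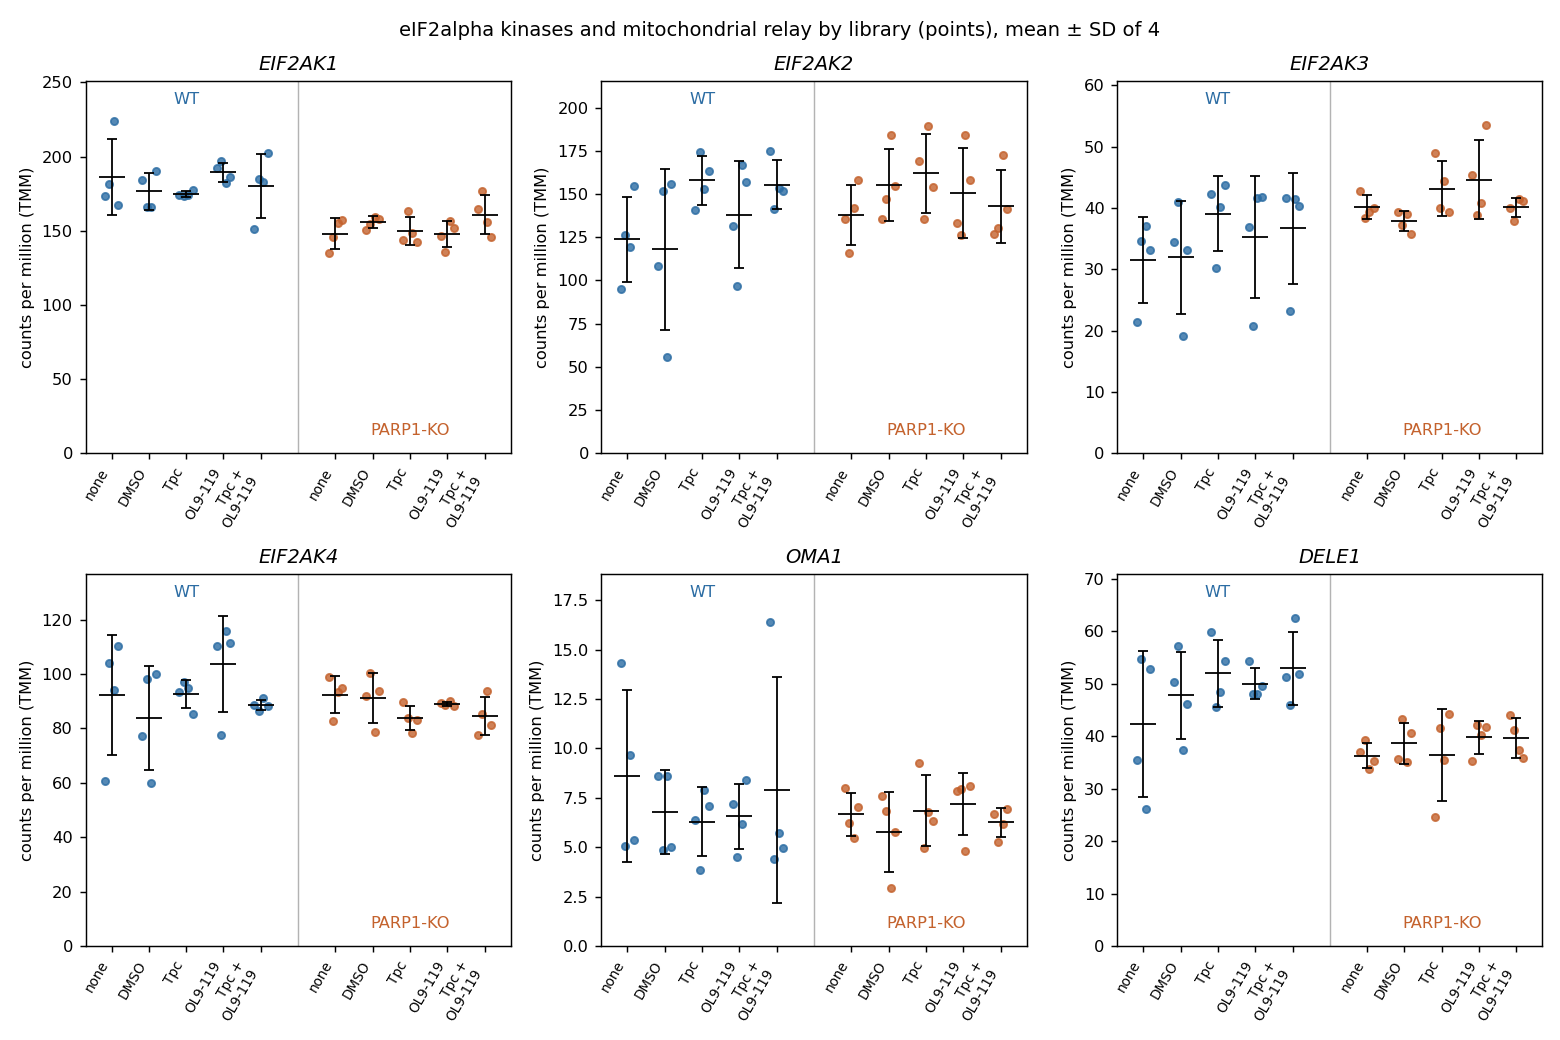
CPM of the 4 kinases, OMA1 and DELE1 in each of the 40 libraries (points, 4 per condition), with mean and SD as bars and a linear axis from 0. WT and PARP1-KO libraries overlap in every panel, and single WT libraries set the widest bars, such as OMA1 at 16.4 and EIF2AK2 at 56.0 CPM.

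PPP1R15A, whose product GADD34 directs protein phosphatase 1 to eIF2α and so ends the response, was the member with the largest difference between genotypes. Untreated WT libraries had 197, 158 and 151 CPM in replicates 1 to 3 and the lowest level, from 1001 counts, in replicate 4, and untreated PARP1-KO libraries 709, 688, 618 and 616 CPM. With DMSO, WT libraries had 142, 120.4, 189.6 and 118 CPM and PARP1-KO libraries 642, 664, 707 and 624 CPM. The groups lay far apart in both cases. The level was 4.17-fold higher in untreated PARP1-KO cells (log2 2.06 ± 0.12, adjusted p = 3.39e-20) and 4.63-fold higher with DMSO (log2 2.21 ± 0.12, adjusted p = 1.12e-21). In the 20 PARP1-KO libraries the gene stayed between 609 and 760.5 CPM whatever the treatment, while in the 20 WT libraries it spanned 118 to 649.7 CPM. Leaving out any 1 library kept the log2 difference between 1.96 and 2.19 untreated and between 2.12 and 2.38 with DMSO. Within each prefix of the library names that held both genotypes, the means of log2 CPM differed by 1.82 and 1.97 untreated and by 2.06 to 2.55 with DMSO. Each of these values rests on 1 or 2 libraries per genotype.

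In WT cells the order of PPP1R15A levels was DMSO (142 ± 33 CPM, SD, n = 4), untreated (158 ± 30), OL9-119 (241 ± 21), Tpc (393 ± 37) and Tpc + OL9-119 (538 ± 75). Libraries given OL9-119 had 239, 272, 225 and 229 CPM, those given Tpc 407, 437, 353 and 374 CPM, and those given both 513, 649.7, 489 and 499 CPM. These 3 groups did not overlap with each other or with the untreated libraries, whereas DMSO and untreated libraries overlapped. Tpc raised PPP1R15A 2.49-fold over untreated cells (log2 1.32 ± 0.12, adjusted p = 2.19e-12), beside 0.857% of all genes called. OL9-119 raised it 1.53-fold (log2 0.61 ± 0.12, adjusted p = 0.000526), beside 1.28%. The combination raised it 3.41-fold (log2 1.77 ± 0.12, adjusted p = 1.54e-17), beside 4.07%. DMSO gave a log2 difference of -0.15 ± 0.12 (adjusted p = 0.692), and 0% of all genes were called for it, with 0 of 9 members by edgeR and DESeq2 and 1 at an unadjusted p under 0.05. When only the 8 libraries compared were fitted, the OL9-119 call was lost (log2 0.61, adjusted p = 0.0688). In each of these comparisons of drugs the untreated libraries are the same 4, so the comparisons are not independent.

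At the doses used, which differ (100 nM Tpc and 5 µM OL9-119), PPP1R15A was higher with Tpc than with OL9-119. Between those 2 groups of WT libraries the log2 difference was 0.71 ± 0.12 (adjusted p = 5.13e-05), beside 0.947% of all genes called. PPP1R15A was the 1 member of 9 called there. Adding OL9-119 to Tpc gave 538 against 393 CPM, a log2 difference of 0.45 ± 0.12 that did not pass the threshold (adjusted p = 0.0815). For that comparison 0 of 9 members were called by edgeR and by DESeq2, 1 at an unadjusted p under 0.05, beside 0.18% of all genes. The combination differed from the sum of the 2 log2 responses by -0.16 ± 0.17, with a 95% confidence interval from -0.49 to 0.17 (adjusted p = 0.869). Against DMSO-treated in place of untreated cells, which counts the solvent once, it was -0.31 (adjusted p = 0.528), and over all alternatives it ran from -0.34 to -0.0095. For this departure from additivity 0.00346% of all genes were called, with 0 of 9 members by edgeR, by DESeq2 or at an unadjusted p under 0.05.

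**Figure D3:**
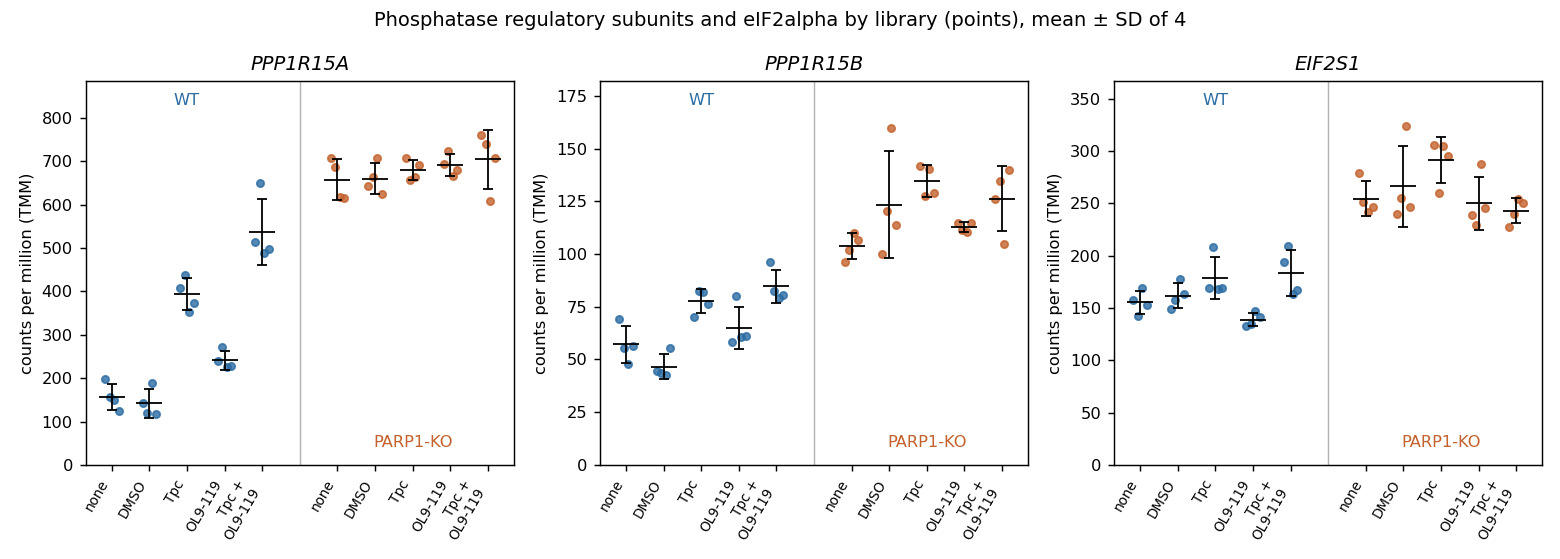
CPM of PPP1R15A, PPP1R15B and EIF2S1 in each of the 40 libraries (points, 4 per condition), with mean and SD as bars and a linear axis from 0. PPP1R15A climbs from 142 CPM with DMSO to 538 CPM with Tpc + OL9-119 in WT cells and stays between 658 and 704 CPM in PARP1-KO cells, and every PARP1-KO library exceeds every WT library for EIF2S1.

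In PARP1-KO cells PPP1R15A passed the test for no treatment. Group means ran from 658 CPM in untreated cells and 659 with DMSO to 680 (Tpc), 692 (OL9-119) and 704 (both drugs). Against untreated cells the log2 differences were 0.0034 ± 0.12, 0.05 ± 0.12, 0.07 ± 0.12 and 0.10 ± 0.12 in that order, with adjusted p = 1 for each. The upper 95% bound for the combination was 0.33, below the response of WT cells. Tpc + OL9-119 exceeded Tpc by a log2 difference of 0.05 ± 0.12 (adjusted p = 1). In all 5 comparisons of treatments within PARP1-KO cells, 0 of 9 members were called by edgeR and 0 by DESeq2. At an unadjusted p under 0.05, edgeR gave 0 members for DMSO, 1 for Tpc, 0 for OL9-119, 1 for the combination and 1 for the combination against Tpc. Few genes were called there at all, namely 0.0138% for Tpc, 0.00346% for OL9-119 and 0% for DMSO, the combination and the combination against Tpc. These counts depended on the fit, since the 4 genes called for Tpc became 120 without the 8 WT libraries of few detected genes and the 1 for OL9-119 became 31 with only the libraries compared.

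The difference of the responses between the genotypes was tested directly. For Tpc the response of PPP1R15A was lower in PARP1-KO cells by a log2 difference of -1.27 ± 0.17 (adjusted p = 7.11e-07), beside 0.1% of all genes called. For Tpc + OL9-119 it was lower by -1.67 ± 0.17 (adjusted p = 1.18e-10), beside 0.27%. For OL9-119 the difference of -0.54 ± 0.17 did not pass (adjusted p = 0.482), beside 0.0657%, and it passed without the 8 libraries of few detected genes (-0.64, adjusted p = 0.00625). PPP1R15A was the 1 member of 9 called for Tpc and for the combination. For OL9-119 0 of 9 members were called by edgeR and DESeq2, and 1 had an unadjusted p under 0.05. The dose of Tpc in PARP1-KO cells was lower than in WT cells, and the untreated level was already above the level that WT cells reached with Tpc. Genotype and dose cannot be told apart in the Tpc comparisons, while the dose of OL9-119 was the same in both genotypes.

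Compared under the same treatment, the gap in PPP1R15A between genotypes narrowed as the WT level rose. With OL9-119 it was 1.52 ± 0.12 on the log2 scale (adjusted p = 3.01e-15), beside 9.77% of all genes called. With Tpc it was 0.79 ± 0.12 (adjusted p = 7.82e-07), beside 8.52%. With Tpc + OL9-119 it was 0.39 ± 0.12 and did not pass (adjusted p = 0.017), beside 7.27%, and 1 WT library, replicate 2 at 649.7 CPM, lay above the lowest PARP1-KO library at 609 CPM. Without that WT library, which is among those of few detected genes, the difference was 0.50 (adjusted p = 0.00348). In these 3 comparisons, added after the data were seen, 3, 3 and 2 of the 9 members were called.

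**Figure D4:**
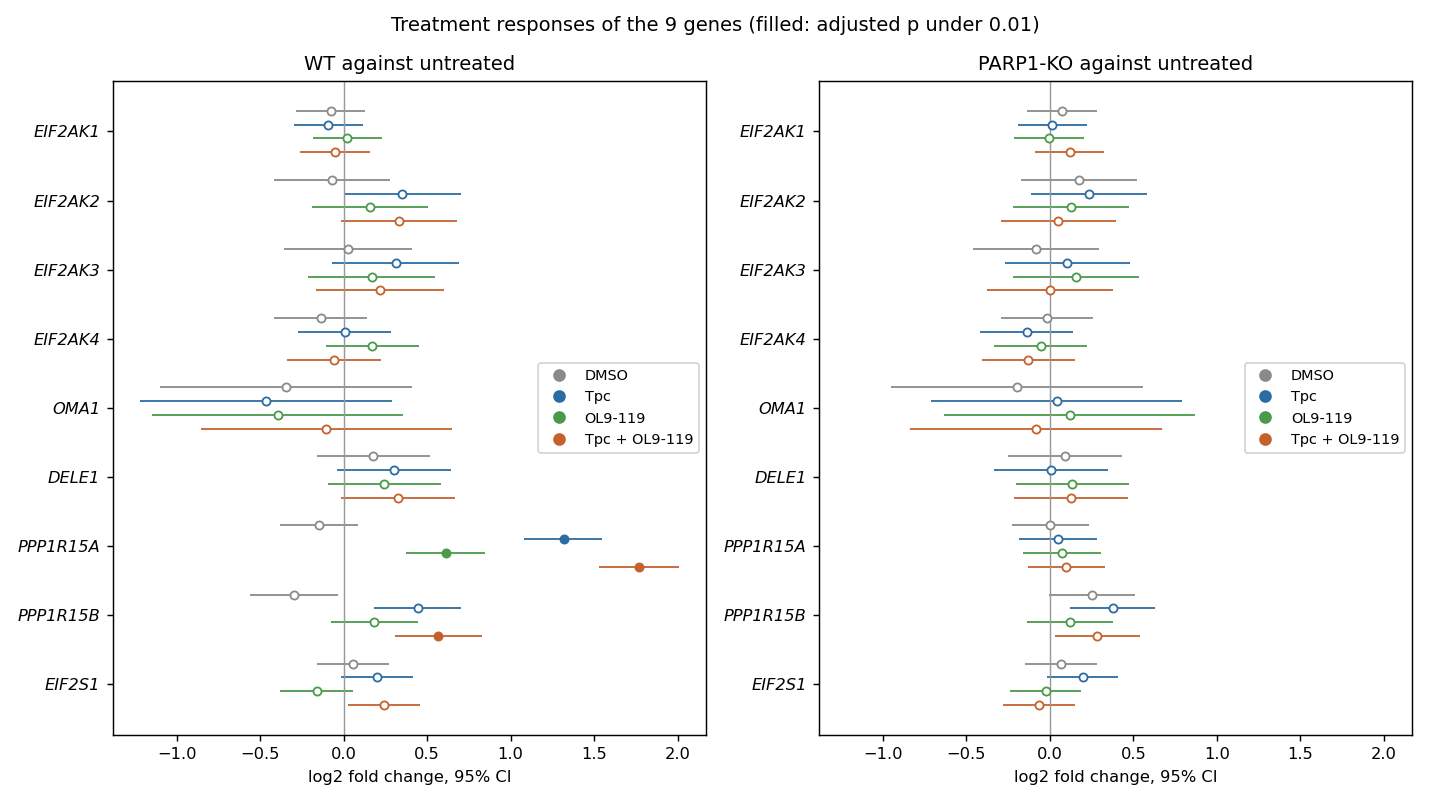
Log2 fold change of each treatment against untreated cells for the 9 genes, with 95% confidence intervals from the edgeR fit, in WT (left) and PARP1-KO cells (right), with 4 libraries per condition. Filled points passed an adjusted p of 0.01: PPP1R15A with Tpc, OL9-119 and the combination, and PPP1R15B with the combination, all in WT cells.

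PPP1R15B encodes CReP, the constitutive partner of protein phosphatase 1, and it was also higher in PARP1-KO cells. Untreated WT libraries had 69.0, 55.3, 47.9 and 56.3 CPM and untreated PARP1-KO libraries 96.0, 101.9, 110.1 and 106.6 CPM. With DMSO, WT libraries had 44.8, 43.5, 42.7 and 55.6 CPM and PARP1-KO libraries 100.1, 120.3, 159.5 and 113.8 CPM. No WT library reached the lowest PARP1-KO library in either pair. The log2 difference was 0.86 ± 0.13 untreated (1.81-fold, adjusted p = 7.72e-07) and 1.41 ± 0.13 with DMSO (2.65-fold, adjusted p = 1.3e-12). With Tpc it was 0.79 ± 0.13 (adjusted p = 6.14e-06), with OL9-119 0.80 ± 0.13 (adjusted p = 4.28e-06) and with the combination 0.58 ± 0.13 (adjusted p = 0.00105). With offsets for length and GC content the untreated difference was 0.56 (adjusted p = 0.00381), and that of the combination no longer passed (0.47, adjusted p = 0.0218). PPP1R15B shares exon bases with an antisense gene.

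Of the treatments, the combination passed the test for PPP1R15B, and that in WT cells. It gave 96.3, 82.4, 79.3 and 80.5 CPM, all above the 4 untreated libraries. This was 1.48-fold over untreated cells (log2 0.57 ± 0.13, adjusted p = 0.00246), which made PPP1R15B the second of 2 members called for the combination. The call was lost without untreated replicate 3 (0.48, adjusted p = 0.0197), without Tpc + OL9-119 replicate 1 (0.50, adjusted p = 0.0208) and without the 8 libraries of few detected genes (0.51, adjusted p = 0.0374). It was also lost with only the 8 libraries compared in the fit (0.57, adjusted p = 0.0586) and with offsets for length and GC content (0.42, adjusted p = 0.0698). The call was kept in 16 of 22 alternatives, among them DMSO-treated cells as comparator (0.865). Tpc libraries had 70.0, 82.3, 82.2 and 76.5 CPM, a log2 difference of 0.44 ± 0.13 from untreated cells that did not pass (adjusted p = 0.0554). Against DMSO-treated cells, which received the same solvent, it was 0.74 and passed (adjusted p = 0.000167). OL9-119 gave 0.18 ± 0.13 against untreated cells (adjusted p = 0.492) and 0.48 against DMSO-treated cells, and neither passed. DMSO itself gave -0.30 ± 0.13 in WT cells (adjusted p = 0.404). In PARP1-KO cells Tpc libraries had 141.7, 127.4, 140.5 and 128.7 CPM, all above the untreated ones, with a log2 difference of 0.38 ± 0.13 and an adjusted p = 0.716. Against untreated cells, the genotype difference of the Tpc response of PPP1R15B was -0.07 ± 0.18 (adjusted p = 1), with a 95% confidence interval from -0.43 to 0.30. With DMSO-treated cells as comparator, the Tpc response was 0.74 in WT cells and 0.125 in PARP1-KO cells, where it did not pass. The likeness of the 2 responses therefore depends on the comparator.

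EIF2S1, the gene of eIF2α, the substrate on which kinases and phosphatase meet, did not overlap between the genotypes in any library. Its 20 WT libraries ran from 133 to 209 CPM with a median of 163, and its 20 PARP1-KO libraries from 227 to 324 CPM with a median of 251. Untreated WT libraries had 158, 142, 169 and 153 CPM and untreated PARP1-KO libraries 278, 251, 241 and 246 CPM. The log2 difference was 0.71 ± 0.11 untreated (1.64-fold, adjusted p = 7.98e-07) and 0.72 ± 0.11 with DMSO (1.65-fold, adjusted p = 5.55e-07). It was 0.70 ± 0.11 with Tpc (adjusted p = 1.58e-06), 0.85 ± 0.11 with OL9-119 (adjusted p = 1.69e-08) and 0.41 ± 0.11 with the combination (adjusted p = 0.00623). With offsets for length and GC content the difference was 0.40 untreated (adjusted p = 0.00797) and 0.32 with DMSO, where the call was lost (adjusted p = 0.0386). The GC content of its transcripts, 38.3%, is the lowest of the 9 genes. The call with the combination was lost with those offsets (0.28, adjusted p = 0.0978), without a count filter (0.40, adjusted p = 0.0172) and when PARP1-KO replicate 2, 3 or 4 or WT replicate 3 or 4 of that treatment was left out (adjusted p from 0.0141 to 0.0368, log2 0.35 to 0.41).

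No treatment passed the test for EIF2S1 in either genotype. In WT cells the log2 difference from untreated was 0.20 ± 0.11 with Tpc (adjusted p = 0.357), -0.16 ± 0.11 with OL9-119 (adjusted p = 0.459) and 0.24 ± 0.11 with the combination (adjusted p = 0.173). Tpc libraries had 169, 208, 168 and 169 CPM and OL9-119 libraries 133, 134, 147 and 141 CPM. These groups did not overlap, and the difference between them was 0.36 ± 0.11 (adjusted p = 0.0646). The library at 208 CPM, Tpc replicate 2, and the 2 highest libraries of the combination, at 194 and 209 CPM, are among those of few detected genes. The other 2 libraries of the combination had 163 and 167 CPM.

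The genes around these 9 in the pathway were counted from lists that were drawn up with earlier results of these data known, so their direction is not independent evidence. The counts of this paragraph stand beside 12.4% of all genes called with DMSO and 11.7% untreated. Among genes at or above the mean level of OMA1 these shares were 28.6% and 27.4%. Of 18 transcription factors and targets of the integrated stress response, 12 were higher and 0 lower in PARP1-KO cells, both with DMSO and untreated. Their median log2 difference was 1.31 and 1.04, beside 0.193 and 0.165 over all genes. With DMSO the called members ran from ATF4, the factor whose translation rises when eIF2α is phosphorylated (0.74 ± 0.14, adjusted p = 2.9e-05), and PSAT1, an enzyme of serine synthesis (0.75 ± 0.10), to GDF15, a secreted stress hormone (2.33 ± 0.20), and CHAC1, which degrades glutathione (3.29 ± 0.43). All 4 genes of the GADD family, DNA damage-inducible and growth arrest genes to which GADD34 owes its name, were higher with DMSO, from GADD45G (1.46) to GADD45B (2.75 ± 0.14). They were higher untreated as well, and DDIT3 of this family is also among the 18 genes above. Of the 3 catalytic subunits that PPP1R15A and PPP1R15B bind, PPP1CA was lower with DMSO (-0.96 ± 0.14) and untreated (-0.84 ± 0.14), while PPP1CB (-0.29) and PPP1CC (0.17) with DMSO did not pass.

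The partners of eIF2α and the regulators of the kinases mostly did not pass, and the counts of the 5 lists that follow stand beside 12.4% of all genes called with DMSO and 28.6% of those at or above the mean level of OMA1, so nothing particular to these lists is read from them. Of the 7 other subunits of eIF2 and of its exchange factor eIF2B, 1 was higher and 1 lower with DMSO, namely EIF2B2 (0.72 ± 0.18) and EIF2S3 (-0.36 ± 0.09). EIF2S3, the γ subunit of the trimer that EIF2S1 belongs to, thus differed in the direction opposite to EIF2S1, and EIF2S2, the β subunit, did not pass (0.23). Of 13 regulators of the kinases, NCK1 was higher (0.94 ± 0.18) and HSPA8, HSP90B1 and FKBP1A were lower with DMSO. HSPA8, a cytosolic chaperone of the HSP70 family, had -1.03 ± 0.12, HSP90B1 -0.59 ± 0.12 and FKBP1A -0.48 ± 0.11. Of 11 inner-membrane proteases and neighbours of the relay, only YME1L1, a protease that works beside OMA1, passed with DMSO (0.59 ± 0.11), and it also passed untreated, where SPG7 was lower (-0.63 ± 0.15). Of 15 interferon-stimulated genes listed beside EIF2AK2, ISG20 (1.96 ± 0.44) and IFIT2 (1.25 ± 0.34) were higher and OAS3 (-1.64 ± 0.19) was lower with DMSO. Of 7 genes of the other branches of the unfolded protein response, HERPUD1 (0.65) and SEL1L (0.63) were higher with DMSO, and SEL1L (0.64) and DNAJB9 (0.58) untreated. Untreated, 0 were higher and 2 lower of the 7 subunits, and likewise of the 13 regulators, beside 11.7% of all genes called. EIF2B2 and NCK1 were thus not called higher without DMSO. Of the 15 interferon-stimulated genes, 1 was higher and 1 lower untreated.

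In WT cells, PPP1R15A was higher with Tpc than with OL9-119, while most of the listed stress response genes were lower. Tpc raised 3 of the 18 stress response genes, OL9-119 raised 12 and the combination 13, with 0 lower each time and medians of 0.275, 1.37 and 1.1 beside 0 over all genes (0.00328 for OL9-119). Of all genes, 0.857%, 1.28% and 4.07% were called in those comparisons. The 3 genes called with Tpc were ATF3 (1.81 ± 0.11), SLC7A11 (0.94 ± 0.22) and CEBPG (0.65 ± 0.10). With OL9-119 the called genes ran from ATF3 (1.01 ± 0.11) and CEBPG (1.07 ± 0.10) to SLC7A11, a cystine transporter (2.83 ± 0.22), and CHAC1 (3.54 ± 0.40). Tested directly, 13 of the 18 genes were lower with Tpc than with OL9-119, CHAC1 (-2.56 ± 0.37) and SLC7A11 (-1.89 ± 0.21) lowest, and 1, ATF3 (0.80 ± 0.11), was higher, beside 0.947% of all genes called. PPP1R15A (0.71 ± 0.12) had the direction of ATF3. In the GADD family the 4 genes divided, with GADD45A higher with Tpc than with OL9-119 (0.89 ± 0.14), DDIT3 lower (-1.75 ± 0.18), and GADD45B (0.01) and GADD45G (-0.10) not called. HSPA8, the chaperone named above, fell by 1.72 ± 0.13 on the log2 scale with OL9-119 and was higher with Tpc than with OL9-119 by 1.30 ± 0.12. Of the 13 regulators of the kinases, OL9-119 lowered 4, the combination 1 and Tpc 0 in WT cells, with 0 higher each time. These counts stand beside 1.28%, 4.07% and 0.857% of all genes called.

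**Figure D5:**
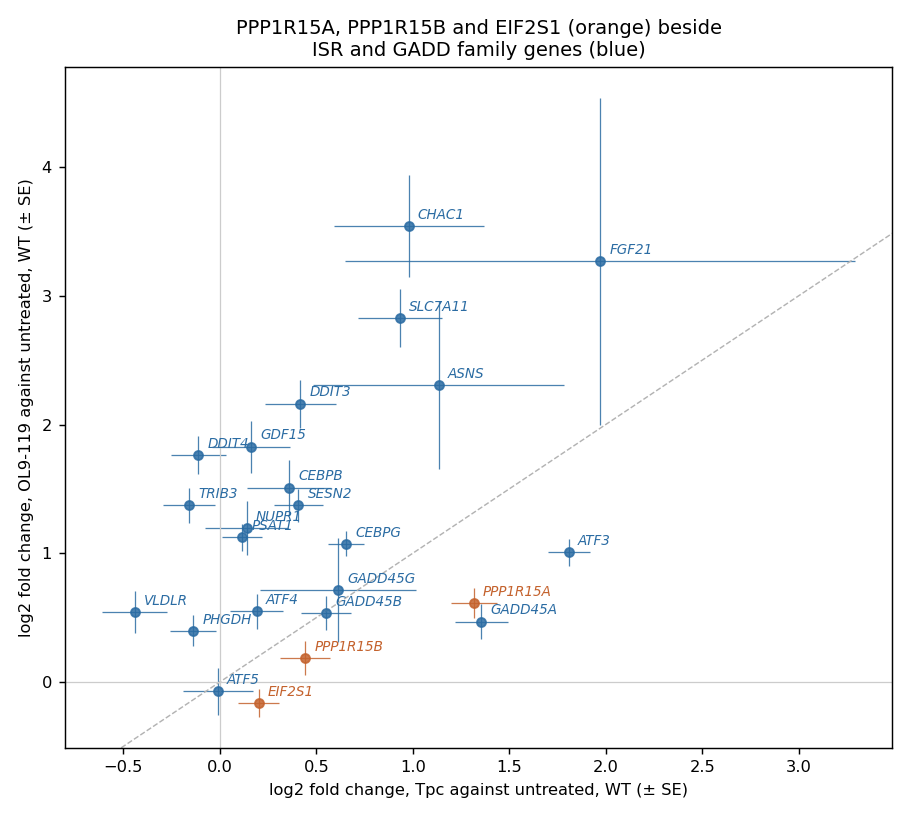
Log2 fold change against untreated WT cells with Tpc (horizontal) and with OL9-119 (vertical), each ± SE, for PPP1R15A, PPP1R15B and EIF2S1 (orange) and for the stress response and GADD family lists (blue), with 4 libraries per condition and the same untreated libraries on both axes. PPP1R15A (1.32 and 0.61), ATF3 (1.81 and 1.01) and GADD45A (1.35 and 0.47) lie below the dashed line of equal change, while CHAC1 (0.98 and 3.54) and DDIT3 (0.42 and 2.16) lie above it.

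In PARP1-KO cells 0 of the 18 stress response genes and 0 of the 4 GADD family genes were called for Tpc, OL9-119 or the combination against untreated cells. Of all genes, 0.0138%, 0.00346% and 0% were called in those comparisons, so nothing particular to these lists is read from that. The response to OL9-119 was lower in PARP1-KO than in WT cells for 9 of the 18 genes, beside 0.0657% of all genes called. That to Tpc was lower for 1, which was ATF3 (-1.78), beside 0.1%. ATF3 and PPP1R15A (-1.27) thus both had a lower Tpc response in PARP1-KO cells, at the lower dose. For the combination, 6 of the 18 genes and 3 of the 4 GADD family genes had a lower response in PARP1-KO cells, beside 0.27%.

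Across the 10 condition means, the genes whose levels were most like those of PPP1R15A among 10509 genes of at least 10 CPM were JUNB (Pearson's r = 0.996), PRDM4 (0.992) and KLF6 (0.991). For PPP1R15B they were PRRC1 (0.998), DDX39B (0.994) and MYSM1 (0.994), and for EIF2S1 DIS3 (0.993), TOPORS (0.992) and SUPT16H (0.992). EIF2AK1 was nearest to TAF6 (0.985), ZNF703 (0.983) and ATP2A3 (0.982), and DELE1 to PGBD5 (0.985), TIMELESS (0.981) and DIS3L (0.974). The genes nearest to EIF2AK3 were PPP1R3E (0.978), ZNF614 (0.964) and MAP3K1 (0.958), and those nearest to EIF2AK2 were CLCC1 (0.974), FAM210A (0.958) and CLDN1 (0.956). EIF2AK4, with CAMKK1 (0.904), SYNJ2 (0.889) and NFIX (0.886), and OMA1, with TPTEP1 (0.819), NDUFAF6 (0.784) and ECHDC1 (0.757), had looser matches. Among the members themselves, PPP1R15A and PPP1R15B had r = 0.96, PPP1R15B and EIF2S1 0.913, and EIF2AK1 and EIF2S1 -0.954. These values describe 10 means that fall into 2 genotypes, so any genes that differ between the genotypes score high.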

How the data were processed

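Poly(A) RNA of 40 HEK293A libraries was sequenced with a directional kit, and the authors deposited raw read counts per gene, made with STAR 2.7.8 on hg38. The strand setting of the counting is not given in the sources used here. Gene symbols were taken from GENCODE 44, which matched 57754 of 58395 identifiers. The 28922 genes whose counts reached a sum of 10 were tested with edgeR 4.0.16 in R 4.3.3 (quasi-likelihood F test, TMM normalisation, 1 coefficient per condition, all 40 libraries in the fit), with Benjamini-Hochberg adjustment over all genes and a threshold of 0.01. SEs were derived from each log2 fold change and its F statistic. CPM values are counts divided by the TMM-scaled library total. Total counts ran from 3455043 to 20379777, so low genes such as OMA1 are the least precise. All adjusted p-values are from edgeR unless DESeq2 (1.42.0) is named.

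The members and lists were chosen with earlier results of these data known. All 9 members were named, with the 3 genes most like each over the condition means, and from each list the called genes with the 2 highest and 2 lowest log2 fold changes. Listed genes named without a call complete a family or complex, or a figure, and were chosen after their values were seen. Of 20 comparisons, 15 were planned and 5 were added after the data were seen (Tpc against OL9-119 and additivity in WT, and PARP1-KO against WT with each drug treatment). Alternatives were DESeq2, other filters, thresholds and scalings, length and GC offsets, a replicate block, the prefix of the library names, DMSO as comparator, only the libraries compared, and each library left out. A covariate for the number of detected genes, and leaving out the libraries with fewest, were added after the data were seen. The fitting code was run on simulated counts for Tpc against untreated WT cells, with those libraries fitted alone. The other comparisons and the fit of all 40 libraries were not simulated. Promoter sequences are from RefSeq (GRCh38.p14), with a window for 8 of the 9 members, EIF2AK1 being the other.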

Additional observations from a re-analysis of the deposited data

Results flagged for a closer look

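In 8 of 90 groups of 4 libraries, 1 library lay far from the other 3, where chance alone flags about 1 in 20 groups. EIF2AK3 had 23.2 CPM in WT Tpc + OL9-119 replicate 2, against 40.4 to 41.6 CPM in the others. EIF2AK4 had 77.6 CPM in WT OL9-119 replicate 2 (others 110.3 to 115.9 CPM). EIF2S1 had 208 CPM in WT Tpc replicate 2 (others 168 to 169 CPM). OMA1 had 4.82 CPM in PARP1-KO OL9-119 replicate 3 (others 7.86 to 8.12 CPM) and 16.4 CPM in WT Tpc + OL9-119 replicate 1 (others 4.42 to 5.73 CPM). PPP1R15A had 650 CPM in WT Tpc + OL9-119 replicate 2 (others 489 to 513 CPM). PPP1R15B had 55.6 CPM in WT DMSO replicate 4 (others 42.7 to 44.8 CPM) and 79.9 CPM in WT OL9-119 replicate 2 (others 58.5 to 61.0 CPM). Apart from OMA1 in PARP1-KO cells and PPP1R15B with DMSO, these libraries are among the 8 with fewest detected genes.

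The response of PPP1R15A differed between the genotypes by the test of the difference itself. It was lower in PARP1-KO cells by -1.27 on the log2 scale for Tpc and by -1.67 for Tpc + OL9-119, at a lower Tpc dose than in WT cells.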

How the results depend on the processing

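Of 462 alternative counts of called members, 437 stayed within 1.5 times the reported count and 25 moved. A minimum change of 1 on the log2 scale, in either direction, left 1 member untreated and with OL9-119 and 0 with Tpc and with the combination between genotypes, and in WT cells 0 for OL9-119, 1 for the combination and 0 for Tpc against OL9-119. Of all genes, that minimum left 1252, 989, 814 and 741 between genotypes and 71, 279 and 89 in WT cells, in the same order. Leaving out the libraries of fewest detected genes gave 5 members between genotypes with OL9-119, 4 with the combination, 1 for the genotype difference of the OL9-119 response and 1 for the combination in WT cells. Of all genes, 4734, 2676, 33 and 405 were called there in the same order, beside 2827, 2103, 19 and 1177 with all libraries. With detected genes as a covariate, 4 members differed between genotypes with the combination, with no count filter 1, and with length and GC offsets 0. Offsets gave 1 member for the combination in WT cells. Fitting only the libraries compared gave 0 for OL9-119 and 1 for the combination in WT cells. Against DMSO-treated cells, 2 members were called for Tpc in WT cells and 2 for the genotype difference of the combination. Leaving out 1 library gave 1 to 3 members between genotypes with the combination (3 without WT replicate 2) and 1 to 2 for the combination in WT cells. In all of these cases the cause was not tested. Over all genes, the counts called in WT cells ran from 61 to 594 for Tpc (248 reported), 42 to 816 for OL9-119 (371) and 225 to 2476 for the combination (1177), lowest with only the libraries compared and highest at a threshold of 0.05. In PARP1-KO cells they ran from 0 to 120 for Tpc (4) and 1 to 31 for OL9-119 (1). Between genotypes they ran from 1383 to 5585 with DMSO (3592) and 1252 to 5294 untreated (3386).

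Of 1288 alternative log2 fold changes, 34 changed sign, none of a called gene. Without the libraries of fewest detected genes these were EIF2AK2 untreated (-0.028), EIF2AK3 with the combination (-0.038), EIF2AK4 untreated (-0.22) and OMA1 untreated (0.34) between genotypes, and PPP1R15A with DMSO in PARP1-KO cells (-0.0039). With length and GC offsets they were EIF2AK2 untreated (-0.20), EIF2AK3 with DMSO (-0.092) and with Tpc (-0.022), EIF2AK4 untreated (-0.17) and with DMSO (-0.080) between genotypes, and PPP1R15A in PARP1-KO cells with DMSO (-0.0095), with the combination (-0.013) and with the combination against Tpc (-0.099). With detected genes as a covariate they were EIF2AK3 with the combination (-0.010), EIF2AK4 untreated (-0.086) and with DMSO (-0.0078), and OMA1 with DMSO (0.060). EIF2AK4 untreated was also -0.0096 with the filter of edgeR, -0.012 without a filter and -0.017 with only the libraries compared, where PPP1R15A with DMSO in PARP1-KO cells was -0.00079. Leaving out 1 library gave -0.032 to 0.21 for EIF2AK3 with the combination, -0.15 to 0.10 for EIF2AK4 untreated, -0.0060 to 0.21 for EIF2AK4 with DMSO, and in PARP1-KO cells -0.035 to 0.031 for PPP1R15A with DMSO and -0.0016 to 0.071 with Tpc.

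Replicate numbers were shared between conditions, but 21 of 64 same-numbered pairs had a correlation of deviations over 0.1 (range -0.272 to 0.581), so they were not taken as pairs. In 1 comparison, Tpc against OL9-119 in WT cells, every pair exceeded 0.1, and there the fit with a replicate block gave 0.71 for PPP1R15A (adjusted p = 1.8e-05). The block changed no call of a member.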
